A study of Mus musculus with 16 samples.

Results

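Leptin and adiponectin are the best known hormones of fat cells, and 6 genes encode them and their receptors: Lep (leptin), Lepr (leptin receptor), Adipoq (adiponectin), Adipor1 and Adipor2 (the adiponectin receptors) and Cdh13 (T-cadherin, which binds the larger adiponectin assemblies). These 6 were taken by symbol from the 47311 genes with transcripts in the deposited quantifications, and Lepr was also followed transcript by transcript. All 6 were among the 16154 genes that had enough reads to be tested. The tissue was whole mammary tumour grown from E0771-luciferase cells, a breast cancer line of mouse origin with a luciferase reporter that matches the host strain. The comparison asks how RNA levels in such tumours differ when the host receives an antibody that blocks the immune checkpoint receptor PD-1.

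The anti-PD-1 group held 8 tumours and the IgG2a group, given an isotype control antibody, held 8 tumours, 1 tumour per mouse. Both groups were female and of strain C57BL/6J, and ate a high fat diet, with 60% of its energy from fat, between 8 and 26 weeks of age. Each mouse received 250000 tumour cells in 25% Matrigel in mammary gland 4. Either antibody was given into the peritoneum at 200 µg per dose, starting 3 days after the cells and repeated every 3 days, until the tumours were taken at 21 days. All hosts were on the high fat diet and 1 cell line was used. Tumours of lean hosts were not analysed here, so no value below is an effect of diet.

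The libraries held 59602128 to 76071424 estimated reads in anti-PD-1 tumours and 59036535 to 82591064 in IgG2a tumours. Of the 16 tumours, 3 stood apart from the rest, and many results are given both with all tumours and without 1 or more of these 3. IgG2a replicate 7 was rich in fat: its adipocyte markers, with Lep and Adipoq left out of the list, summed to 15014 TPM (transcript abundance scaled for length and depth), against at most 522 in the other 15 tumours. Its erythroid markers summed to 92514 TPM (at most 2668 elsewhere), and its endothelial, fibroblast, epithelial and macrophage markers were also the highest. IgG2a replicate 3 was rich in skeletal muscle transcripts, with 33328 TPM summed over 10 markers. Anti-PD-1 replicate 6 had reads on 38993 transcripts, against 47997 to 55476 in the others. Epithelial markers summed to 47.3 to 130 TPM in anti-PD-1 tumours and 50.6 to 440 TPM in IgG2a tumours. Of the 10, 2 (Krt19 and Krt14) were at 0 in at least 1 tumour. Whether these markers follow the amount of tumour cells was not tested.

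Leptin is secreted in proportion to fat mass and acts through its receptor on JAK2 and STAT3, with SOCS3 as the feedback inhibitor. Adiponectin circulates as trimers, hexamers and larger assemblies, usually falls in obesity, and acts through its receptors on AMP-activated kinase, on PPAR alpha and on ceramide breakdown, with APPL1 as an adaptor. The mammary gland is embedded in fat, so adipocytes, vessels and tumour cells can all contribute RNA of these genes to a tumour sample. In such bulk samples fewer cells of a type and less RNA per cell cannot be told apart.

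Levels of different genes were compared per length, in TPM. Over all 16 tumours the median level was 74.7 TPM for Adipor1, 41.7 TPM for Adipor2, 36.7 TPM for Cdh13, 2.12 TPM for Adipoq, 0.572 TPM for Lep and 0.209 TPM for Lepr. The receptors for adiponectin were thus the abundant transcripts, and the hormones and the leptin receptor were scarce in nearly every tumour. Adipor1 stood above Adipor2 in 15 of 16 tumours and above Cdh13 in 15 of 16. Adipor2 and Cdh13 were close, with Adipor2 higher in 12 of 16 tumours and ranges that overlapped widely. Adipoq stood above Lep in all 16 tumours, and Lep stood above Lepr in 14 of 16. IgG2a replicate 7 was the only tumour in which either hormone exceeded any of Adipor1, Adipor2 or Cdh13.

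No member passed the test of anti-PD-1 over IgG2a. With edgeR's quasi-likelihood test and Benjamini-Hochberg adjustment over all genes, 0 of the 6 members and 0 of the 16154 genes tested (0%) had an adjusted p under 0.05. At an unadjusted p under 0.05 the fit listed 1836 genes. DESeq2 called 4 genes (0.0143%), none of them a member, and limma-voom called 0 with and without sample weights. Unadjusted, 4 of the 6 members (Lep, Lepr, Adipoq and Adipor2) were lower in anti-PD-1 tumours at that threshold, and 0 of 6 were higher, against 7.9% lower and 3.47% higher over all genes tested. Without IgG2a replicate 7, 2 of the 6 (Lepr and Adipor2) were lower and 0 higher, against 3.41% lower and 3.73% higher over all genes. Without the 3 tumours that stood apart, the members under that threshold were Adipor2 (edgeR unadjusted p = 0.0243) and Cdh13 (0.0271), both lower. Lepr was not among them (0.16). Of all 16352 genes of that fit, 1452 were lower and 1128 higher at the same unadjusted threshold.

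**Figure D1:**
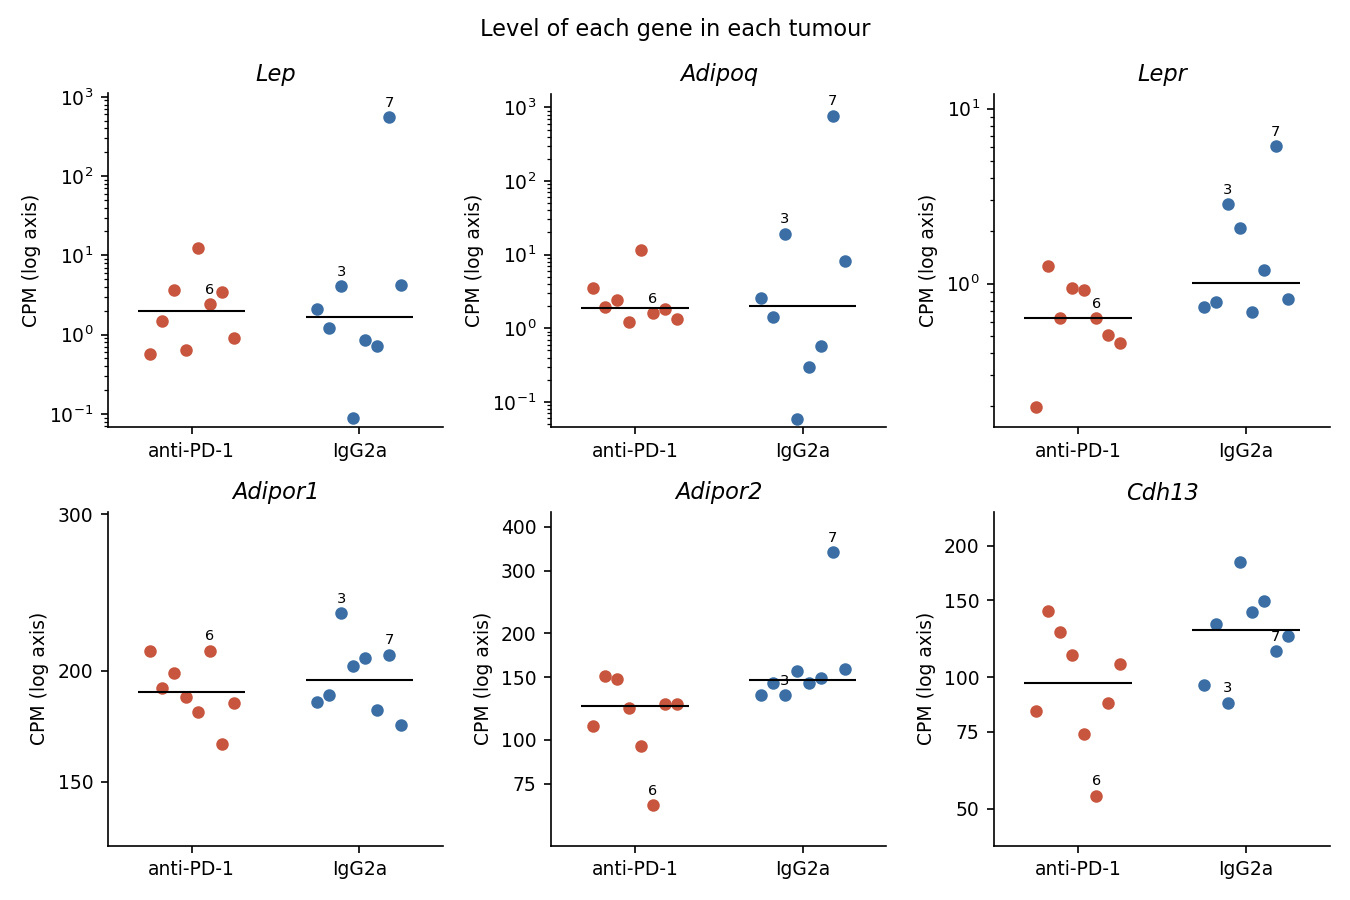
Each point is 1 tumour, with CPM (reads scaled to library size) on a log axis, anti-PD-1 tumours at the left and IgG2a tumours at the right of each panel, and the horizontal line at the group median. The 3 tumours that stood apart carry their replicate number. IgG2a replicate 7 lies at 551 CPM for Lep and 772 CPM for Adipoq, and the groups overlap for every gene.

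Of the hormones, Lep (chromosome 6, 29060220 to 29073877, plus strand) had its lowest, median and highest level at 0.576, 1.96 and 12.3 CPM in anti-PD-1 tumours, against 0.0884, 1.65 and 551 CPM in IgG2a tumours. IgG2a replicate 7 alone, with 34182 reads, carried 97.7% of the group's summed CPM and stood 44.6 times above the next tumour, anti-PD-1 replicate 5. The highest other IgG2a tumour reached 4.24 CPM, below the highest anti-PD-1 tumour. The lowest level was in IgG2a replicate 4, which had 6 Lep reads. Among the 15 tumours other than replicate 7, the highest Lep level was 140 times the lowest. The edgeR log2 fold change, anti-PD-1 over IgG2a, was −4.46 ± 1.59 (SE, n = 8 each, adjusted p = 0.434) with all tumours and 0.75 ± 0.74 (n = 8 and 7, adjusted p = 0.655) without replicate 7, so 1 tumour set its direction. With DESeq2, which replaced the counts of IgG2a replicate 7 and anti-PD-1 replicate 5 for this gene as outliers, the fold change was −0.0022, on the log2 scale (adjusted p = 0.999).

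Adipoq (chromosome 16, 23146536 to 23158028, plus strand) had its lowest, median and highest level at 1.23, 1.90 and 11.5 CPM in anti-PD-1 tumours and 0.0590, 2.02 and 772 CPM in IgG2a tumours. Replicate 7, with 47896 reads, held 96.0% of the IgG2a sum and stood 40.3 times above the next tumour, the muscle-rich IgG2a replicate 3 with 19.1 CPM. The IgG2a tumours also held the lowest values: replicates 4, 5 and 6 had 4, 20 and 34 reads, and all 3 lay below every anti-PD-1 tumour in CPM. The IgG2a group therefore enclosed the anti-PD-1 group at both ends. The log2 fold change was −4.98 ± 1.62 (edgeR, SE, n = 8 each, adjusted p = 0.434), and −0.53 ± 0.88 (adjusted p = 0.794) without replicate 7. Without all 3 tumours that stood apart it was 0.63 ± 0.85 (adjusted p = 0.736). DESeq2 replaced the counts of the same 2 tumours for Adipoq as for Lep and gave −1.07 ± 0.71 (adjusted p = 0.795).

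**Figure D2:**
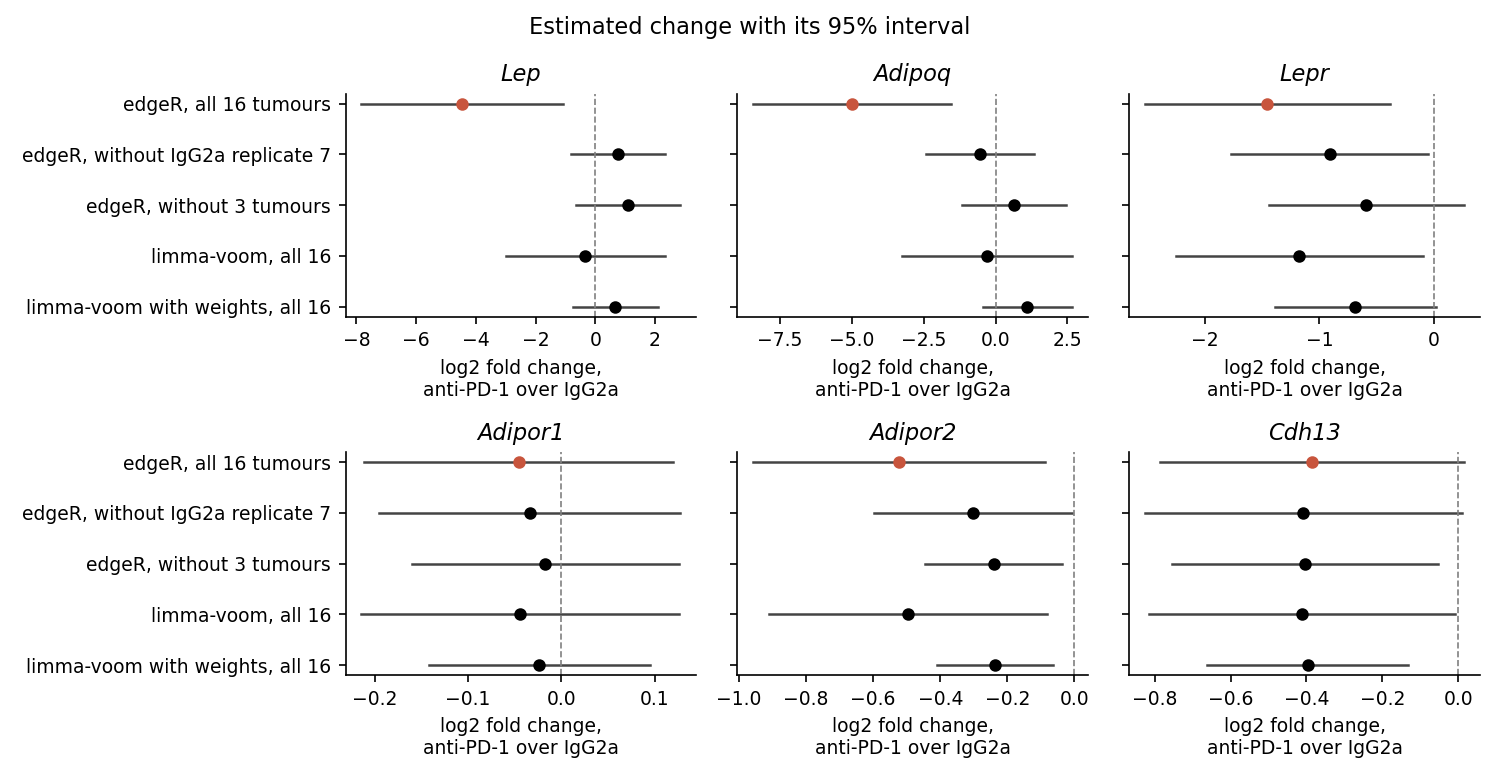
Estimated log2 fold change of each gene, anti-PD-1 over IgG2a, with its 95% interval, under 5 fits. For Lep the estimate is −4.46 with all 16 tumours and 0.75 without IgG2a replicate 7. For Cdh13 it lies between −0.41 and −0.39 in each of the 5, and for Adipor1 every interval includes 0.

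Each hormone was read almost wholly from 1 transcript, except Adipoq in IgG2a replicate 7. Lep-201 held 100% of Lep reads in 15 of 16 tumours and 99.97% in IgG2a replicate 7. Adipoq-201 held 100% of Adipoq reads in those 15 tumours, and in replicate 7 a second, shorter transcript of 539 bases, Adipoq-202, received 15.3% of the reads. The next richest tumours had 787 Adipoq reads (anti-PD-1 replicate 5) and 1477 (IgG2a replicate 3), none of them assigned to Adipoq-202.

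Because Lep and Adipoq varied together and Adipor1 hardly varied, their promoters are shown side by side, as the 250 bases before the RefSeq start site (RefSeq sequence, build GRCm38.p6, plus strand). Capitals mark the letters found on either strand of 4 motifs: TTGCGCAA, the C/EBP palindrome bound by regulators of fat cell genes; the TATA box, searched as the letters TATAA; the box named after its letters CCAAT; and the GC box, searched as GGGCGG. The windows are chr6:29059971-29060220 for Lep, chr16:23146286-23146535 for Adipoq and chr1:134415128-134415377 for Adipor1.
Lep: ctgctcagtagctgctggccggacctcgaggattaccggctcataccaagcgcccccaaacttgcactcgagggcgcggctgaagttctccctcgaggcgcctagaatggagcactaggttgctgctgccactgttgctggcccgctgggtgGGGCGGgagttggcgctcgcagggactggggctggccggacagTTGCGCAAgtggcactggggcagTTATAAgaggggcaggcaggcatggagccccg
Adipoq: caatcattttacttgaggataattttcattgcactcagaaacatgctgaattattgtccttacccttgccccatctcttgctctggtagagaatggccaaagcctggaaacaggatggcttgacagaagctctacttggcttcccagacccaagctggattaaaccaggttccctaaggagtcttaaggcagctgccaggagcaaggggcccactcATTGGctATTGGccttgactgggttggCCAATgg
Adipor1: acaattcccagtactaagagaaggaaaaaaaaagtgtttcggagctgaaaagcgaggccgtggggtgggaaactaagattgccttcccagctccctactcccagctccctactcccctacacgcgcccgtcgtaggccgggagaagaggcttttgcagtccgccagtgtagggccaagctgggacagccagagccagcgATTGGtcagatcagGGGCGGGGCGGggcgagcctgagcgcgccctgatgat
The Lep window holds TTGCGCAA at position −55 from the start site, a run that 0.164% of the 32851 promoters of that table hold. It also holds TATAA at position −31, with its reverse complement overlapping it at position −32, and 1 GC box. TATAA is present in 22.8% of all promoters. The Adipoq window holds CCAAT 3 times, at positions −34, −27 and −7, and none of the other motifs, while 33.8% of all promoters hold CCAAT. The Adipor1 window holds 1 CCAAT box and 2 GC boxes that overlap each other, and 32.7% of all promoters hold GGGCGG. The GC content was 65.6% for Lep, 48.8% for Adipoq and 59.6% for Adipor1. These matches describe the letters only.

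Both hormones were set against the adipocyte marker list, from which they had been left out. Over the 15 tumours other than IgG2a replicate 7, log2 CPM of Adipoq followed the mean log2 CPM of the adipocyte markers with Pearson's r = 0.988 (permutation p = 1e-05, the smallest that 100000 permutations can give; adjusted p = 0.00036 over 36 relations) and Spearman's rho = 0.929 (permutation p = 1e-05, adjusted p = 0.00036). Within groups r was 0.958 in the 8 anti-PD-1 tumours and 0.994 in the 7 IgG2a tumours. Without the 2 tumours farthest from the median marker level it was 0.981. For Lep the relation was looser, with r = 0.809 (permutation p = 0.0004, adjusted p = 0.0048) and rho = 0.718 (permutation p = 0.0032, adjusted p = 0.0165). Its r was 0.665 in anti-PD-1 tumours, 0.923 in IgG2a tumours and 0.715 without the 2 farthest tumours. Fibroblast and epithelial markers also rose with both hormones. Against the fibroblast markers r was 0.762 for Adipoq (adjusted permutation p = 0.00857) and 0.655 for Lep (adjusted permutation p = 0.033). There rho was 0.575 and 0.457 (adjusted permutation p = 0.0829 and 0.191). Against the epithelial markers rho was 0.625 for each (adjusted permutation p = 0.0496). Lepr did not follow the adipocyte markers over these 15 tumours (r = −0.0070, permutation p = 0.98, adjusted p = 0.98; rho = −0.168, permutation p = 0.547, adjusted p = 0.703). Whether the difference in these relations between genes exceeds chance was not tested.

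**Figure D3:**
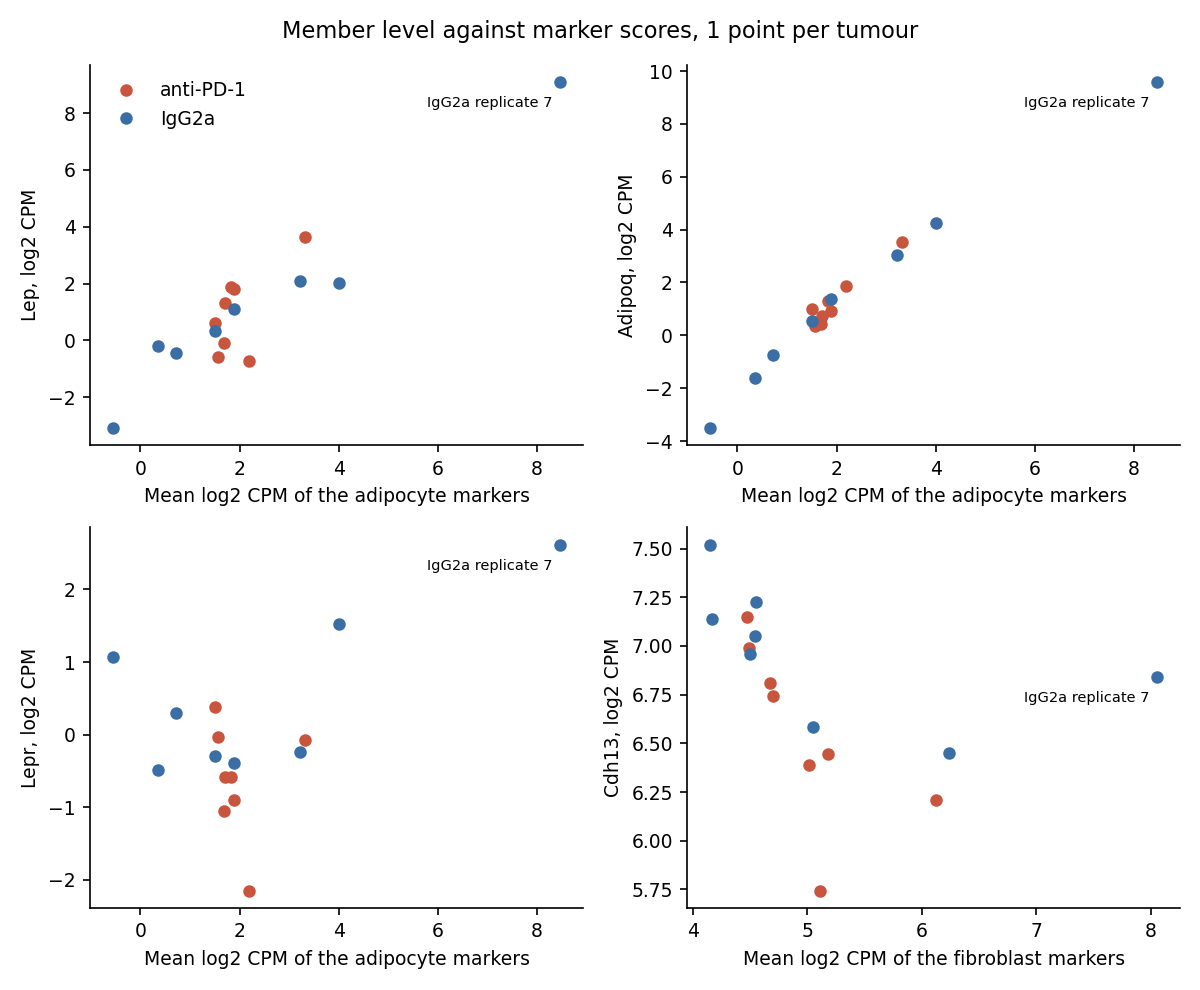
Each point is 1 of the 16 tumours, with log2 CPM of the gene on the vertical axis and mean log2 CPM of a marker list on the horizontal axis. Adipoq lies along a line with the adipocyte markers (r = 0.988 without IgG2a replicate 7), Lep scatters more widely (r = 0.809), Lepr does not follow them, and Cdh13 runs downward against the fibroblast markers in the tumours other than replicate 7.

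The amount of hormone RNA per unit of fat RNA varied less than the hormone itself. The TPM ratio of Adipoq to Plin1 (perilipin, the coat protein of fat droplets) ranged over 1.47 to 3.75 in anti-PD-1 tumours and 1.53 to 5.34 in IgG2a tumours. IgG2a replicate 7 lay inside these ranges, at 2.77. The ratio of Lep to Plin1 ranged over 0.209 to 1.77 in anti-PD-1 tumours and 0.317 to 2.32 in IgG2a tumours, with 0.492 in replicate 7. The ratio of Lep to Adipoq was 0.0558 to 0.654 in anti-PD-1 tumours and 0.0734 to 0.988 in IgG2a tumours, and 0.178 in replicate 7. Thus replicate 7 was far from the others in the level of both hormones but not in any of these ratios.

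Other fat cell genes showed the same dependence on replicate 7. Plin1 had a log2 fold change of −5.07 ± 1.63 with all tumours and −0.16 without it. For Cfd (adipsin, a complement factor made by fat cells) the values were −4.74 ± 1.5 and −1.21. For Fabp4 (a fatty acid carrier) they were −3.36 ± 1.15 and 0.18, for Retn (resistin) −3.13 ± 1.31 and −0.15, and for Pparg (the master regulator of fat cell formation) −1.56 ± 0.66 and −0.02. The edgeR adjusted p of each of these 5 was 0.434 with all tumours. Of the 18 adipocyte markers 16 were tested, and all 16 had a lower estimate in anti-PD-1 tumours with all tumours. Without replicate 7, 5 were higher and 11 lower, and without the 3 tumours 12 were higher and 4 lower. Over all genes tested, 6962 were higher and 9192 lower with all tumours. The same counts were 8070 and 8223 without replicate 7, and 8712 and 7640 without the 3 tumours. Cidea, Acvr1c, Adrb3 and Lgals12 were at 0 in at least 1 tumour. The part of fat content in the values of Lep and Adipoq was not tested separately.

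The leptin receptor gene, Lepr (chromosome 4, 101717404 to 101815352, plus strand), had its lowest, median and highest level at 0.196, 0.636 and 1.27 CPM in anti-PD-1 tumours, against 0.684, 1.01 and 6.11 CPM in IgG2a tumours. The totals were small, with 15 to 89 reads per anti-PD-1 tumour and 46 to 379 per IgG2a tumour. IgG2a replicates 7, 3 and 4 were the 3 highest, and 1 of the 8 anti-PD-1 tumours lay above the IgG2a median. The groups overlapped between 0.684 and 1.27 CPM. The log2 fold change was −1.45 ± 0.50 (edgeR, SE, n = 8 each, adjusted p = 0.434), and −0.91 ± 0.41 (adjusted p = 0.558) without replicate 7. Without the 3 tumours that stood apart it was −0.59 ± 0.40. Endothelial markers, which mark cells known to carry Lepr in several tissues, summed to 92.4 to 185 TPM in anti-PD-1 tumours and 107 to 983 TPM in IgG2a tumours (at most 157 without replicate 7). Over the 15 other tumours Lepr and the endothelial markers had r = 0.463 (permutation p = 0.0819, adjusted p = 0.184) and rho = 0.625 (permutation p = 0.0147, adjusted p = 0.0496). The r was 0.02 in anti-PD-1 tumours, 0.959 in IgG2a tumours and 0.182 without the 2 farthest tumours, so the relation rests on few tumours.

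Alternative last exons give leptin receptors with the same outer part and different tails inside the cell. The long form carries the docking sites for STAT3, while the short forms keep the JAK2 binding region that follows the membrane. The 3 annotated transcripts with a full reading frame are shown to make plain how they part, with the last 30 shared coding bases in lower case and the coding bases of each form that follow in capitals (GENCODE vM21 transcripts, GRCm38). The shared bases are chr4:101792041-101792070. For Lepr-201 only the first 90 of its 819 own coding bases are given (chr4:101814448-101814537), for Lepr-203 all 15 (chr4:101811348-101811362) and for Lepr-202 all 9 (chr4:101792071-101792079).
Lepr-201: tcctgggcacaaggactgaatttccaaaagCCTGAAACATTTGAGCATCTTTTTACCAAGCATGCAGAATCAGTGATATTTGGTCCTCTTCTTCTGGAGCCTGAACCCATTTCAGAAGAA
Lepr-203: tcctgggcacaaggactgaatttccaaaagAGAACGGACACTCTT
Lepr-202: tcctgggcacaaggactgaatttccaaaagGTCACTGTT
Lepr-201 has the longest reading frame, with 1162 codons, and is the long form. Lepr-203 has 894 codons and Lepr-202 has 892.

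Nearly all Lepr reads were assigned to the short form Lepr-203. It had reads in 16 of 16 tumours and held 97.7% of the Lepr reads of the series. Its lowest, median and highest estimates were 9.77, 41 and 89 reads in anti-PD-1 tumours, against 43.7, 61.5 and 379 reads in IgG2a tumours. Lepr-201, the long form, had reads in 2 of 16 tumours: 3.06 of 28.0 Lepr reads in anti-PD-1 replicate 8 (10.9%, exact binomial 95% interval 2.27 to 28.2%) and 8.96 of 61 in IgG2a replicate 8 (14.7%, 6.98 to 26.2%). Per length the shares differed from these, with Lepr-201 at 2.20% of the Lepr TPM in anti-PD-1 replicate 8 and 19.0% in IgG2a replicate 8, so that the difference between the group means was −2.10 percentage points on that scale. In the tumour richest in Lepr, IgG2a replicate 7, it had 0 of 379 reads. That allows a share of up to 0.792% if every Lepr read could tell the forms apart. In the other 13 tumours the limit that a count of 0 allows lay between 1.36% and 20%. The intervals and limits cover counting error only and count every Lepr read as able to show its form. Only 905 of the 4127 bases of Lepr-201 are in no other Lepr transcript, so the limits on the long form itself are higher. Lepr-202, Lepr-204 and Lepr-205 had no reads in any tumour, Lepr-206 had 5.21 reads in 1 tumour and Lepr-207 had 14.97 reads over 3 tumours.

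The lengths on which the forms can be told apart differ. Lepr-203 has 2320 bases found in no other annotated Lepr transcript, most of them among the 2305 bases after its last codon. Lepr-201 has 905 such bases, with an annotated end only 86 bases after its last codon. The mean long-form share was 1.37% in anti-PD-1 tumours and 1.84% in IgG2a tumours. The difference was −0.47 percentage points, and its sign turned to 1.37 without IgG2a replicate 8. With only 2 of 16 tumours above 0, an exact permutation test of this share cannot give a p below 0.467, so the groups could not be compared by it. Tested over 40674 transcripts with edgeR, Lepr-203 had a log2 fold change of −1.46 ± 0.56 (SE, n = 8 each, adjusted p = 0.691), and −0.97 ± 0.49 without replicate 7. No transcript of the 40674 (0%) passed that test, and the other Lepr transcripts had too few reads to enter it.

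**Figure D4:**
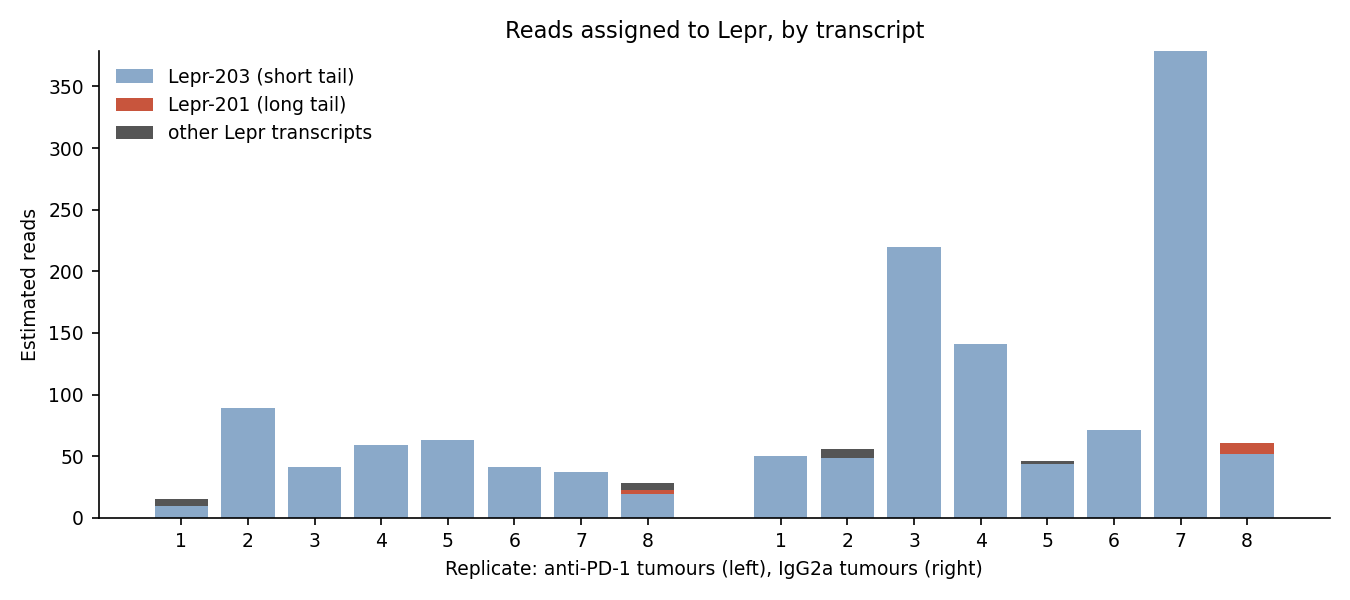
Estimated reads assigned to Lepr in each tumour, stacked by transcript, with anti-PD-1 replicates 1 to 8 at the left and IgG2a replicates 1 to 8 at the right. Lepr-203 fills nearly every bar, and Lepr-201 appears only in replicate 8 of each group (3.06 and 8.96 reads).

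Leprot, which encodes a small membrane protein that limits the surface display of the leptin receptor, was far more abundant than Lepr. It ranged over 36.4 to 61.9 CPM in anti-PD-1 tumours and 30.1 to 113 CPM in IgG2a tumours, the highest being replicate 7. Its log2 fold change was −0.05 ± 0.24 (edgeR adjusted p = 0.922) with all tumours and 0.26 without replicate 7.

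Adipor1 (chromosome 1, 134415378 to 134433351, plus strand) was the steadiest member in CPM. Its lowest, median and highest level was 165, 189 and 211 CPM in anti-PD-1 tumours and 174, 195 and 232 CPM in IgG2a tumours. The highest of the 16 tumours was 1.40 times the lowest, and IgG2a replicate 7 was within 1.11 times the median of the others. The log2 fold change was −0.05 ± 0.08 (edgeR, SE, n = 8 each, adjusted p = 0.789), with a 95% interval of −0.21 to 0.12. In TPM Adipor1 ran from 49.6 to 78.2 in anti-PD-1 tumours, lowest in replicate 6, and from 72.5 to 87.6 in IgG2a tumours. The difference in mean log2(TPM + 1) was −0.17 (exact permutation p = 0.0182, unadjusted), and −0.09 without the 3 tumours that stood apart (exact permutation p = 0.095). The TPM and edgeR results differ in unit, test and adjustment, and the cause of their difference was not tested. Adipor1-201 held 68.3 to 88.1% of its reads in anti-PD-1 tumours and 67.4 to 79.6% in IgG2a tumours, and Adipor1-202 most of the rest.

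Adipor2 (chromosome 6, 119353150 to 119417704, minus strand) varied more. It had its lowest, median and highest level at 65.2, 124 and 151 CPM in anti-PD-1 tumours, against 133, 147 and 338 CPM in IgG2a tumours. The extremes were tumours that stood apart: anti-PD-1 replicate 6 was the lowest and IgG2a replicate 7 was 2.14 times the next tumour. Without replicate 7 the IgG2a tumours lay in a narrow band up to 158 CPM. The groups still overlapped, since 2 of the 8 anti-PD-1 tumours lay above the IgG2a median. The log2 fold change was −0.52 ± 0.21 (edgeR, SE, n = 8 each, adjusted p = 0.434). It was −0.30 ± 0.14 (adjusted p = 0.558) without replicate 7 and −0.24 ± 0.10 without the 3 tumours. All these estimates are negative, and none passed the adjustment over all genes.

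Most Adipor2 reads were assigned to Adipor2-201, and nearly all others to Adipor2-202. Adipor2-202 held 1.16, 15.5 and 25.2% of the gene's reads (lowest, median and highest) in anti-PD-1 tumours, against 7.08, 29.0 and 38.1% in IgG2a tumours. The lowest share in each group was in a tumour that stood apart, replicate 6 and replicate 7. Adipor2-202 had a log2 fold change of −1.01 ± 0.50 (edgeR over transcripts, adjusted p = 0.691), and −1.10 ± 0.53 without replicate 7. For Adipor2-201 these were −0.37 ± 0.23 (adjusted p = 0.695) and −0.10 ± 0.12. The difference between the 2 transcripts was not tested.

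Within a tumour, the log2 ratio of Adipor1 to Adipor2 TPM averaged 1.09 ± 0.46 in anti-PD-1 tumours and 0.64 ± 0.41 in IgG2a tumours (SD, n = 8 each). It ran from 0.68 to 2.08 in anti-PD-1 tumours and from −0.22 to 1.23 in IgG2a tumours. The ends of that span were again anti-PD-1 replicate 6 and IgG2a replicate 7. The difference of 0.46 had an exact permutation p of 0.0427 (two-sided, over 12870 assignments). Adjusted over this test and that of the long-form share, which could not have passed, it was 0.0855, so the difference did not pass the threshold. Adjusted values below cover the same tests only, not the settings tried. Its unadjusted p was under 0.05 in 8 of the 16 turns of leaving out 1 tumour. Leaving out IgG2a replicate 3 gave 0.54 (exact permutation p = 0.00886, adjusted p = 0.0177). Leaving out IgG2a replicate 7 gave 0.34 (exact permutation p = 0.0928, adjusted p = 0.186), and without anti-PD-1 replicate 6 the difference was 0.32 (exact permutation p = 0.0918, adjusted p = 0.184). Without all 3 tumours that stood apart it was 0.27 (exact permutation p = 0.0321, adjusted p = 0.0641).

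Cdh13 (chromosome 8, 118283733 to 119324921, plus strand), which encodes a cadherin held in the membrane by a lipid anchor in place of a tail, was close to Adipor2 in abundance per length and below it in 12 of 16 tumours. Its lowest, median and highest level was 53.6, 97.2 and 142 CPM in anti-PD-1 tumours, against 87.4, 128 and 184 CPM in IgG2a tumours. Anti-PD-1 replicate 6 was the lowest and IgG2a replicate 4 the highest, and 1 of the 8 anti-PD-1 tumours lay above the IgG2a median. IgG2a replicate 7 was ordinary for this gene, at 1.02 times the median of the others. The log2 fold change was −0.39 ± 0.19 (edgeR, SE, n = 8 each, adjusted p = 0.434). It was −0.41 ± 0.20 (adjusted p = 0.558) without replicate 7 and −0.40 ± 0.16 without the 3 tumours. The estimate was therefore about the same size in all 3 fits and missed the threshold in each. Cdh13-201 held 96.3 to 99.9% of the gene's reads in anti-PD-1 tumours and 95.8 to 99.7% in IgG2a tumours.

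Cdh13 and Adipor2 varied together, with Spearman's rho = 0.806 over the 16 tumours and 0.864 without replicate 7. Over the 15 tumours other than replicate 7, Cdh13 was lower where fibroblast and epithelial markers were higher. Replicate 7, the highest tumour in both marker lists, was ordinary for Cdh13. In the other 15 its relation to the fibroblast markers had r = −0.730 (permutation p = 0.00189, adjusted p = 0.0113) and rho = −0.868 (permutation p = 8e-05, adjusted p = 0.00144). The r was −0.679 in anti-PD-1 tumours, −0.860 in IgG2a tumours and −0.875 without the 2 farthest tumours. For the epithelial markers, whose cell source was not tested, r was −0.804 (permutation p = 0.00028, adjusted p = 0.0048) and rho was −0.811 (permutation p = 0.0005, adjusted p = 0.006). There r was −0.890 in anti-PD-1 tumours, −0.534 in IgG2a tumours and −0.668 without the 2 farthest. Against the adipocyte markers Cdh13 had rho = −0.768 (permutation p = 0.00132, adjusted p = 0.0095), while r was −0.592 (permutation p = 0.0201, adjusted p = 0.0604) and −0.445 without the 2 farthest. Adipor2 also ran against the fibroblast markers by rank, with rho = −0.771 (permutation p = 0.00125, adjusted p = 0.0095) and r = −0.494 (permutation p = 0.0622, adjusted p = 0.149; −0.664 without the 2 farthest). Against the epithelial markers Adipor2 had r = −0.684 (permutation p = 0.00308, adjusted p = 0.0139) but rho = −0.514 (permutation p = 0.0519, adjusted p = 0.144), and r was −0.377 without the 2 farthest. For the endothelial markers, which mark the vessel lining where T-cadherin is best known, r was 0.0648 (permutation p = 0.819, adjusted p = 0.951) and rho was 0.111 (permutation p = 0.697, adjusted p = 0.805).

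The number of transcripts with reads moved with both genes. Over the same 15 tumours it had r = 0.885 with Adipor2 (permutation p = 0.00119, adjusted p = 0.00857; rho = 0.746, permutation p = 0.00203, adjusted p = 0.0122) and r = 0.722 with Cdh13 (permutation p = 0.00222, adjusted p = 0.0114; rho = 0.707, permutation p = 0.00453, adjusted p = 0.0204). Without anti-PD-1 replicates 1 and 6, the 2 tumours with the fewest transcripts, r was 0.522 for Adipor2 and 0.401 for Cdh13. In anti-PD-1 tumours r was 0.890 for Adipor2 and 0.821 for Cdh13, and in IgG2a tumours it was 0.441 for Adipor2 and 0.136 for Cdh13. The part of RNA quality or library complexity in the values of these genes was not tested.

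A search for genes like each member covered 11731 protein-coding genes past a floor on mean log2 CPM, with Gm and Rik symbols left out. Those whose rank order over the 16 tumours was most like the member's are given by Spearman's rho, as a description with no test. For Adipoq they were Pck1 (0.953), Cdo1 (0.950), Cidec (0.944), Plin4 (0.932) and Palmd (0.932), of which Pck1, Cidec and Plin4 are in the adipocyte marker list. For Lep they were Npr3 (0.900), Lama2 (0.882), Cyp4b1 (0.879), Nudt16 (0.871) and AW146154 (0.871), and none is in that list. For Lepr they were Ulk2 (0.876), Prelp (0.871), Ttc28 (0.865), Stox2 (0.862) and Srl (0.859). For Adipor1 they were Dmkn (0.888), Ginm1 (0.865), Flad1 (0.862), Pnrc1 (0.853) and Cdk5rap3 (0.832). For Adipor2 they were Rmnd5a (0.971), Tbc1d32 (0.956), Ctdsp2 (0.953), Nr3c1 (0.947) and Pam (0.944). For Cdh13 they were Dag1 (0.982), Notch1 (0.968), Hipk1 (0.950), Lrig2 (0.944) and Dhrs9 (0.941). Lep and Adipoq had rho = 0.785 with each other, while Lep and its receptor Lepr had rho = 0.194 and Adipoq had −0.0118 with Adipor2 and 0.121 with Adipor1.

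Downstream of the leptin receptor, 21 of 21 listed genes were tested and 0 passed. With all tumours 5 had a higher and 16 a lower estimate in anti-PD-1 tumours, with a median log2 fold change of −0.11, against 6962 higher and 9192 lower and a median of −0.05 over all genes tested. Without replicate 7, 7 were higher and 14 lower, with a median of −0.06. Over all genes of that fit 8070 were higher and 8223 lower, with a median of −0.003. Without the 3 tumours that stood apart, 8712 of all genes were higher and 7640 lower, with a median of 0.02. These values over all genes serve as background for each list below. Jak2, the kinase bound to the receptor, had a log2 fold change of −0.20 ± 0.16 and Stat3, its main target, −0.05 ± 0.09. Socs3, a STAT3 target that feeds back on the receptor, had 0.26 ± 0.26 and means of 141 CPM in anti-PD-1 tumours and 117 CPM in IgG2a tumours. Stat5b, another STAT of the pathway, had −0.26 ± 0.08 (edgeR unadjusted p = 0.00658, adjusted p = 0.434) and −0.25 without replicate 7. Irs1, an insulin receptor substrate that leptin signalling also uses, had −3.86 ± 1.38 (adjusted p = 0.434), −1.73 without replicate 7 and 0.57 without the 3 tumours.

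Downstream of the adiponectin receptors 17 of 20 listed genes were tested and 0 passed, with 3 higher, 14 lower and a median log2 fold change of −0.17. Without replicate 7, 4 were higher and 13 lower, with a median of −0.15. Appl1, the adaptor of both receptors, had −0.17 ± 0.07 (edgeR unadjusted p = 0.0385, adjusted p = 0.434), and its relative Appl2 had −0.22 ± 0.20. Prkaa1, a catalytic subunit of AMP-activated kinase, had −0.03 ± 0.10, while Prkaa2, the other catalytic subunit, and Ppara did not pass the filter on low counts. Cpt1a, which admits fatty acids to mitochondria, had −0.70 ± 0.29 and −0.32 without replicate 7. Acacb, the acetyl-CoA carboxylase that AMP-activated kinase inhibits and that is abundant in muscle and fat, had −2.62 ± 0.73 (unadjusted p = 0.00228, adjusted p = 0.434) and −2.36 without replicate 7. Without the 3 tumours, the muscle-rich IgG2a replicate 3 among them, Acacb had −0.39.

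All 6 genes listed for the assembly and secretion of adiponectin were tested, with 5 higher and 1 lower and a median of 0.10 with all tumours, and 3 higher and 3 lower without replicate 7. Erp44, which retains adiponectin in the secretory pathway until it is assembled, had 0.16 ± 0.09, and Sel1l, part of the machinery that clears misfolded proteins, had −0.33 ± 0.14. Of the other adipokines, 14 of 16 were tested, with 5 higher and 9 lower with all tumours and 8 higher and 6 lower without replicate 7. Tnf, an inflammatory cytokine that lowers adiponectin expression in fat cells, had a log2 fold change of 0.81 ± 0.26 (edgeR unadjusted p = 0.0058, adjusted p = 0.434) and means of 14.03 CPM in anti-PD-1 tumours and 8.00 CPM in IgG2a tumours. It was 0.79 without replicate 7 and 0.71 without the 3 tumours. Of the 6 receptors of other adipokines, 1 was higher and 5 lower, with Gpr1 (a chemerin receptor) at −2.42 ± 1.01 and Tlr4 at −0.60 ± 0.27. These were −0.55 for Gpr1 and −0.28 for Tlr4 without replicate 7.

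Of the adiponectin paralogs, which share its C1q-like head, 11 of 12 were tested, with 5 higher and 6 lower and a median of −0.03 with all tumours. Without replicate 7, 7 were higher and 4 lower, with a median of 0.40, and without the 3 tumours 8 were higher and 2 lower among the 10 then tested. C1qtnf9, a close paralog of adiponectin, had −2.34 ± 0.81 with all tumours and −0.32 without replicate 7, and C1qtnf1 had −1.69 ± 0.66 and −0.22. The highest estimate of the list was that of C1qtnf2, a relative named here after its values were seen, at 0.95 with all tumours and 1.96 without replicate 7. Of the PAQR family, to which the adiponectin receptors belong, 7 of 9 other members were tested and all 7 had a lower estimate with all tumours. Without replicate 7, 2 were higher and 5 lower, with Paqr9 at −3.41 ± 1.21 and −0.50 and Mmd at −0.69 ± 0.37 and −0.03. Of 5 other cadherins 4 were tested, with 1 higher and 3 lower with all tumours, 3 higher and 1 lower without replicate 7, and 4 higher and 0 lower without the 3 tumours. Cdh5 (the cadherin of the vessel lining) had −1.31 ± 0.57 with all tumours and −0.05 without replicate 7. Cdh1 (E-cadherin) had −0.99 ± 0.90 and 1.29. No gene of these lists passed the adjustment over all genes in any of the 3 edgeR fits.

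**Figure D5:**
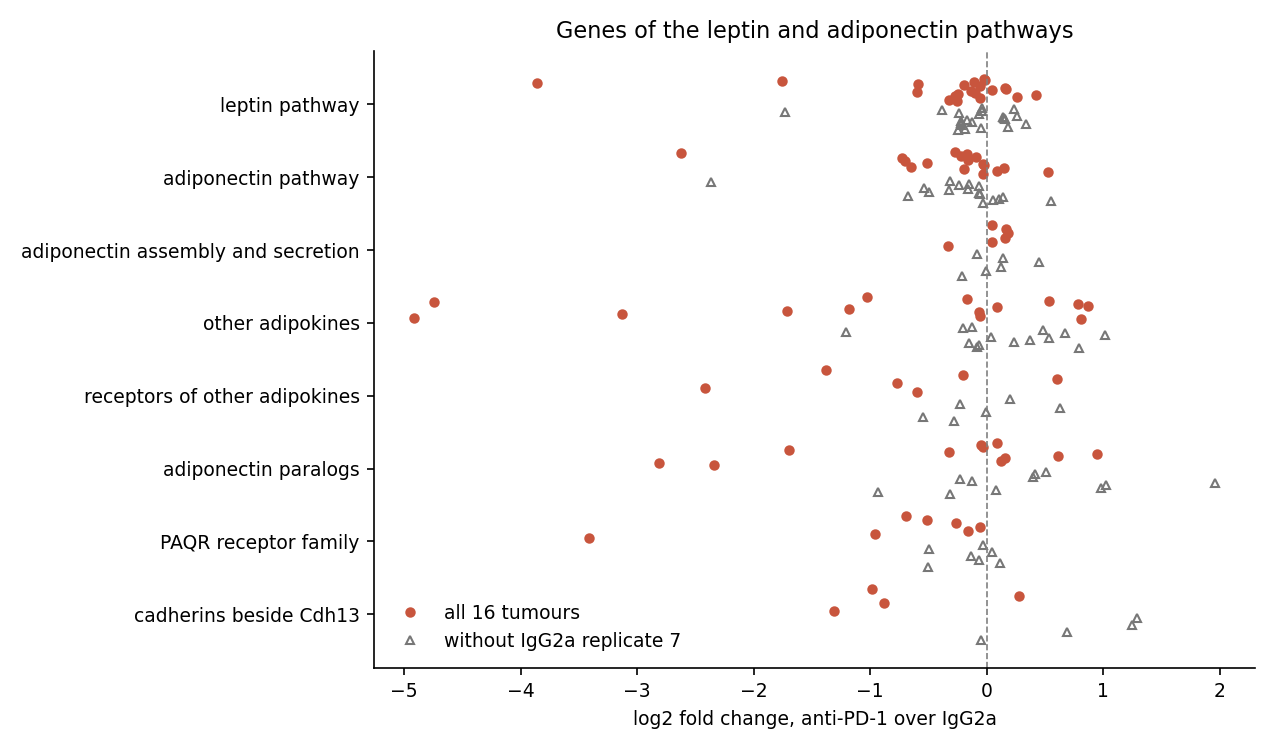
Log2 fold change, anti-PD-1 over IgG2a, of each tested gene of 8 lists, with filled circles for all 16 tumours and open triangles for the fit without IgG2a replicate 7. Estimates below −2 are mostly those of genes whose triangle lies much closer to 0, such as Cfd at −4.74 and −1.21, and Acacb at −2.62 and −2.36 is the exception.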

How the data were processed

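RNA was measured in 16 mouse tumours, 8 per group, after poly(A) selection with a kit that does not record strand, on RNA with an integrity number above 5 per the labels' protocols. The authors deposited 1 table per tumour with an estimated count and a TPM value for each of 115088 transcripts, per the file headers. The program that assigned reads is not given in the sources used here. The submitters' processing notes name GRCm38, edgeR and limma. The deposited estimated counts need not be whole. Of all 115088 transcripts, those without reads included, 25.4 to 38.6% per tumour had a count that was not whole to within 1e-06.

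Transcripts were joined to GENCODE vM21 (GRCm38), which matched 114200 of them. The unmatched transcripts held 0.167 to 0.217% of reads. For each gene the estimated counts of its transcripts were added up and the sum was rounded. Genes with few reads were removed (edgeR filterByExpr, minimum count 10, minimum total 15), and libraries were scaled by TMM. The groups were compared with edgeR 4.0.16 (R 4.3.3) by a robust quasi-likelihood test, adjusted by Benjamini-Hochberg over all 16154 genes or 40674 transcripts, with 0.05 as threshold. SE is the log2 fold change divided by the root of F. CPM are counts scaled by the TMM library sizes, and TPM are the deposited values summed per gene. The log2 ratio of Adipor1 to Adipor2 used a pseudocount of 0.5 TPM and the other ratios none. Exact permutation tests took all 12870 assignments. Marker scores are the mean log2 CPM of a list, and correlations used 100000 permutations.

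Alternatives were RLE, upper-quartile and total scaling, 2 other filters, DESeq2 1.42.0, limma-voom 3.58.1 with and without sample weights, no robust shrinkage, a covariate for low against high animal numbers, and leaving out tumours. DESeq2 replaces outlying counts, and did so in 3013 genes. DESeq2 without the fat-rich tumour was added after seeing the data. Tested on simulated data with 50 genes changed per size, the gene fit recovered 16% of 1.5-fold, 36% of 2-fold, 76% of 4-fold and 86% of 8-fold changes, and called 0.0313% of unchanged genes. The transcript fit recovered 0%, 14%, 46% and 68% of the same sizes. Simulated counts were drawn gene by gene with each gene's fitted dispersion, and no simulated tumour stood apart as a whole. These rates need not hold for Lep and Adipoq, whose estimates rested on 1 tumour.

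The members, the lists and the tumours left out were chosen with earlier results of these data known. Named genes were the members, 14 fixed genes of the pathways and of fat, and the 2 of smallest p in each list. To these were added the 5 genes closest to each member in rank order among those searched. The labels give each tumour an animal number but no litter, cage or batch, and p-values measure the spread between these animals.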

Additional observations from a re-analysis of the deposited data

Results flagged for a closer look

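Of 14 groups of values examined, 3 held a tumour flagged as far from the other 7 of its group. The rule divided the gap to the next tumour by the range of the group, with levels on a log scale. A result above 0.526 was flagged. Chance flags about 1 in 20 groups. Lep in IgG2a replicate 7 stood at 551 CPM, while the other IgG2a tumours reached at most 4.24 CPM. Adipor2 in the same tumour stood at 338 CPM, against at most 158 CPM in the others of its group. Adipoq in that tumour was not flagged, though it stood at 772 CPM against 19.1 CPM in the next tumour. The IgG2a group also held the lowest Adipoq values, which widened its range. The adipocyte markers of IgG2a replicate 7 summed to 15014 TPM, and their part in its Adipor2 level was not tested. The log2 ratio of Adipor1 to Adipor2 was 2.08 in anti-PD-1 replicate 6, the tumour with the fewest transcripts detected, against a median of 0.92 in its group.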

How the results depend on the processing

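Of 141 values under other settings, the turns of leaving out each tumour not counted, 124 kept their direction and side of the threshold, or for list medians and counts stayed close. Size did not enter this count for the members, none of which had passed in the main fit. Lep, at −4.46 there, was counted as kept with DESeq2 (−0.0022) and limma-voom (−0.33). Adipoq, at −4.98 there, was counted as kept with DESeq2 (−1.07) and limma-voom (−0.30). Directions turned for Lep, to 0.67 with weighted limma-voom, 0.75 without IgG2a replicate 7, 1.09 without the 3 tumours that stood apart and 0.76 with DESeq2 without replicate 7 (added after seeing the data). They turned for Adipoq, to 1.11 with weighted limma-voom and 0.63 without the 3 tumours. On log2 TPM with pseudocounts of 0.1 and 1, Adipor1 had −0.17 with both (exact permutation p = 0.0182, unadjusted) and Adipor2 had −0.64 and −0.62 (exact permutation p = 0.0171, unadjusted), against unadjusted edgeR p-values of 0.566 for Adipor1 and 0.0213 for Adipor2. Without the 3 tumours (added after seeing the data) these TPM differences were −0.09 (p = 0.095) for Adipor1 and −0.36 (exact permutation p = 0.0134) for Adipor2. The cause was not tested. DESeq2 called 4 genes, and 3 without replicate 7, and 1 transcript was called without the 3 tumours. List medians moved to 0.034 for the receptors of other adipokines without the 3 tumours, and for the other cadherins to 0.97 without replicate 7 and 1.14 without the 3.

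Leaving out 1 tumour at a time gave log2 fold changes of −5.22 to 0.75 for Lep, −1.63 to −0.91 for Lepr, −5.65 to −0.53 for Adipoq, −0.07 to −0.01 for Adipor1, −0.58 to −0.30 for Adipor2, −0.48 to −0.29 for Cdh13 and −1.64 to −0.97 for Lepr-203. It gave 0 called genes and 0 called transcripts each time, 0.32 to 0.54 for the ratio of Adipor1 to Adipor2, and −1.84 to 1.37 percentage points for the long-form share, which was −2.10 on the TPM scale. No value was obtained for Lepr with the filter of 1 CPM in 8 tumours, which removed it. No paired analysis was possible because each tumour came from a separate mouse and replicate numbers only follow the order of the records. Depth limits the shares of Lepr transcripts: with 15 to 379 Lepr reads per tumour, a long-form share below 0.792 to 20% could not be detected in tumours with none. These limits take every Lepr read as able to tell the forms apart. Since many reads cannot, the limits on the long form itself are higher.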
